A study of Mus musculus with 2 samples.

Results

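The killer lectin-like receptor (Klr) genes encode C-type lectin-like receptors carried mainly by natural killer (NK) cells and subsets of T cells. All probes whose gene name on the array starts with Klr, followed by a subfamily letter and a number, were taken, which gave 31 of the 37074 gene names and 51 of the 56605 probes that are not controls. They fall into the subfamilies Klra (16 genes), Klrb (6), Klrc (2), Klrd (1), Klre (1), Klrg (2), Klri (2) and Klrk (1). Most Klr genes lie side by side in the NK gene complex, and the receptors either activate or restrain the cell that carries them. Inhibitory members recruit phosphatases through a motif in their own tail and mostly read MHC class I molecules, whereas activating members signal through adaptor proteins such as Tyrobp (DAP12) and Hcst (DAP10). In the brain, cells that carry them are known as sparse residents of the meninges and vessels and as recruits during inflammation.

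The study set the olfactory bulb of a mouse kept under odor-enriched conditions beside that of a control mouse kept under standard odor conditions. Total RNA of each was labelled with Cy3 as cRNA primed from the poly(A) tail, and hybridised to 1 one-colour Agilent mouse array per group. The labels name olfactory bulb as the source and its neurons as the tissue. No sorting step, strain, age, sex, odorant or exposure time is given in the sources used here. With 1 array per group there was no biological replicate, so no test between the groups was possible, and every error below is technical. In bulk RNA of this kind, fewer cells of a type and less RNA per cell cannot be told apart.

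Values are processed signals (background-subtracted intensities) with the scanner software's own error for that spot, and a level is the log2 signal minus the array's 75th percentile. Differences are odor enriched minus control. A probe counted as detected where the software marked it well above background, which held for 66% of probes on the odor-enriched array and 72.5% on the control array. The lowest detected signal was 7.97 on the odor-enriched array and 4.85 on the control array. After scaling, these floors lay 1.03 log2 units apart, so a dim gene detected on the odor-enriched array only gets a bound near 2-fold from the floors alone. Each Klr probe had 1 spot per array, and none was saturated or marked as an outlier. All 13 olfactory bulb neuron markers were measured on both arrays, including Doc2g and Cdhr1, which are genes of mitral and tufted cells. Both of these were lower in the odor-enriched bulb, with differences of -1.84 for Doc2g and -1.40 for Cdhr1. They were named after their values were seen, and they are among the 3 neuron markers that fell by 2-fold or more. In the same list Tbx21 went the other way, with a difference of 3.11, and Eomes differed by only -0.36. The remaining neuron markers stayed under 2-fold, and the median difference of all 13 was -0.49. Across all 23872 genes measured on both arrays the median difference was 0.00, and the levels correlated across genes with r = 0.946.

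The results turn on a small set of 60-base probes, whose sequences and mm9 positions come from the deposited array files. The first set shows the probes of the receptors with the clearest values (Klrg1, Klrd1, Klrk1, Klra1 and Klra16) and the probes of Klrb1c, which disagreed with each other. Numbers in brackets order the probes of a gene by position.
Klrg1 (1) (chr6:122220629-122220688, minus strand): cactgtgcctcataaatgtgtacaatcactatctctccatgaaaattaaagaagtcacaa
Klrg1 (2) (chr6:122220970-122221029, minus strand): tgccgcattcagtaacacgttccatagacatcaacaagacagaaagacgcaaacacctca
Klrd1 (chr6:129548391-129548450, plus strand): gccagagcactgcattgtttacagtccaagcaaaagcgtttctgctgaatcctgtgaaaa
Klrk1 (1) (chr6:129562442-129562501, minus strand): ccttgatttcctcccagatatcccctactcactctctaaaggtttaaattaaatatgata
Klrk1 (2) (chr6:129562482-129562771, minus strand): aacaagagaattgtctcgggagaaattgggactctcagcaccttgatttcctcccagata
Klrb1c (1) (chr6:128728603-128728662, minus strand): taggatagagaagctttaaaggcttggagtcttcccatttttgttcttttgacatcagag
Klrb1c (2) (chr6:128729611-128729670, minus strand): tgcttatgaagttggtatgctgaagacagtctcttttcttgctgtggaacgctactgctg
Klrb1c (3) (chr6:128734770-128734829, minus strand): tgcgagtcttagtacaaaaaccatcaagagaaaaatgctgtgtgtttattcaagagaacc
Klra1 (chr6:130314070-130314129, minus strand): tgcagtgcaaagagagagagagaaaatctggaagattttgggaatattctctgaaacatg
Klra16 (no mm9 position in the files): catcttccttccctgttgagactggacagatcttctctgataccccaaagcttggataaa

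The Klra probes resemble each other, which bears on how far their signals can be assigned to single genes. In the set below, capitals mark the bases that differ from the Klra7 probe over the aligned stretch.
Klra7 (chr6:130168899-130168958, minus strand): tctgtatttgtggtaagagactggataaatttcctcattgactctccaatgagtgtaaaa
Klra4 (chr6:129994035-129994094, minus strand): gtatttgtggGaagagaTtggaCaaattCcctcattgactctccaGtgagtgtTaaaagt
Klra15 (2) (no mm9 position in the files): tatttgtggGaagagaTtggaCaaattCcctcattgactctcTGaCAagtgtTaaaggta
Klra23 (1) (chr6:130241179-130241238, minus strand): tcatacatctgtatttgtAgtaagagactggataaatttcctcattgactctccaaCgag
Klra23 (2) (chr6:130241187-130241246, minus strand): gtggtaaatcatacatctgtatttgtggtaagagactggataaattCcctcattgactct
The Klra4 probe matched the Klra7 probe at 51 of 57 aligned bases, and Klra23 (1) matched it at 51 of 53. Klra15 (2) matched it at 47 of 56, and Klra23 (2) at 44 of 45. Among all Klr probes, 22 pairs shared at least 40 bases in an ungapped alignment, the closest being Klra15 (2) and Klra4 with 53 of 59. No Klr probe shared a run of 20 bases with a probe of any other gene. That search used another rule and covered array probes only, so resemblance to transcripts outside the family was not tested.

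A further set covers 1 stretch of mm9 under different gene names, and its capitals mark the 21 positions that both Klra22 (2) and Klra15 (1) cover.
Klra22 (1) (chr6:129922175-129922234, minus strand): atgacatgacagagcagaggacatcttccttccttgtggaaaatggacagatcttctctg
Klra22 (2) (chr6:129922235-129922294, minus strand): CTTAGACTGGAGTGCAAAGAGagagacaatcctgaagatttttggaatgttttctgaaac
Klra15 (1) (chr6:129922274-129922333, minus strand): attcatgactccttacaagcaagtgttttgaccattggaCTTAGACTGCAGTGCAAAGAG
The RefSeq gene table lists Klra22 as a synonym of Klra1, and it does not hold Klra12, Klra15 or Klra19 as current symbols. Of 48 Klr probes with a RefSeq accession, 37 matched that table and none changed its name. The number and identity of Klra genes differ between inbred mouse strains, and 4 Klra probes, those of Klra16, Klra19, Klra12 (3) and Klra15 (2), have no mm9 position in the files. A Klra signal below is therefore the signal of the named probe, and hybridisation of a near-identical family member to it was not tested.

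Detection of Klr probes was more frequent on the odor-enriched array, mainly within the Klra subfamily. Of the 51 Klr probes, 30 (58.8%) were detected on the odor-enriched array and 15 (29.4%) on the control array. On both arrays 14 were detected, 16 on the odor-enriched array only, 1 on the control array only and 20 on neither. Over all probes, 1.27% were detected on the odor-enriched array only and 7.71% on the control array only. By gene name, 19 of the 31 Klr genes were detected on the odor-enriched array and 13 on the control array. Among all gene names of the array, 65.6% were detected on the odor-enriched array and 71.7% on the control array. Of the 31 Klr genes, 12 had a probe detected on both arrays, 7 were detected on the odor-enriched array only and 1 on the control array only. Among all gene names, 1.21% were detected on the odor-enriched array only and 7.29% on the control array only. The other 11 were detected on neither.

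Within subfamilies, the 27 Klra probes gave 19 detections on the odor-enriched array and 7 on the control array. The 11 Klrb probes gave 3 on the odor-enriched array and 2 on the control array. The Klrd1 probe was detected on both arrays. The 3 Klre1 probes were all detected on the odor-enriched array, against 2 of them on the control array, and the 2 Klrk1 probes gave 2 and 1 detections in the same order of arrays. The 3 Klrg probes gave 2 detections on the odor-enriched array and 2 on the control array, though not the same ones. No probe of Klrc1, Klrc3, Klri1 or Klri2 was detected on either array.

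**Figure D1:**
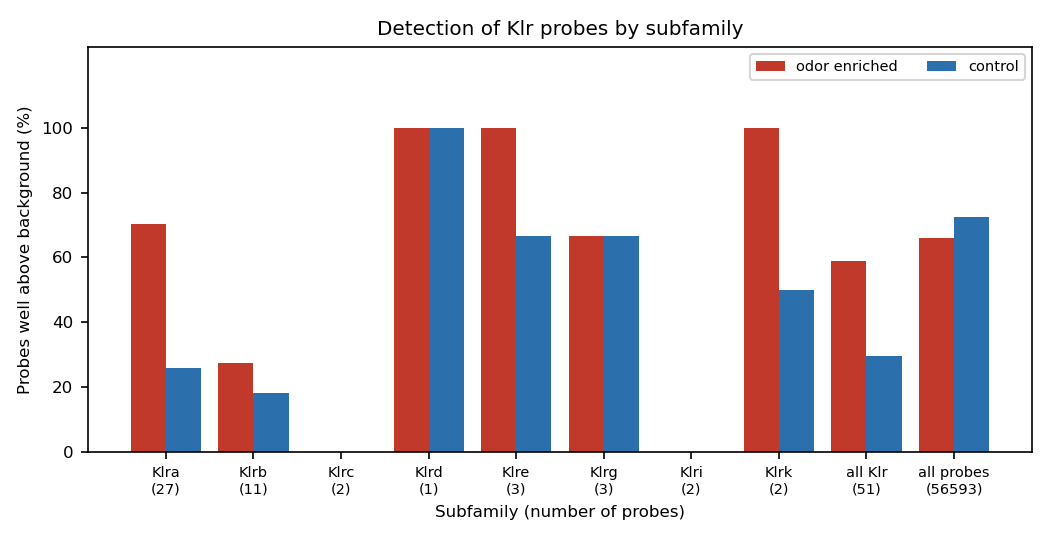
Share of probes well above background (%) for each Klr subfamily, all Klr probes and all probes, with the number of probes in brackets, on the odor-enriched array (red, left bar) and the control array (blue, right bar). The Klra bars stand at 70.4% on the odor-enriched array and 25.9% on the control array, while all probes stand at 66% and 72.5% in the same order, and Klrc and Klri have no bar.

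The Klr spots were scattered over the array of 384 rows and 164 columns. Those detected on the odor-enriched array only lay between row 18 and row 342 and between column 5 and column 163. The median difference of the 9 by 5 spots around each Klr spot ran from -0.23 at Klrd1 to 0.56 at Klra23 (1) and Klre1 (2), with 1 exception. That exception was Klrb1c (1), at row 11 and column 151, where the surrounding spots were higher on the odor-enriched array by a median of 1.22. It was the only Klr spot among the 139 spots (0.234%) whose surroundings differed by more than 1.2.

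**Figure D2:**
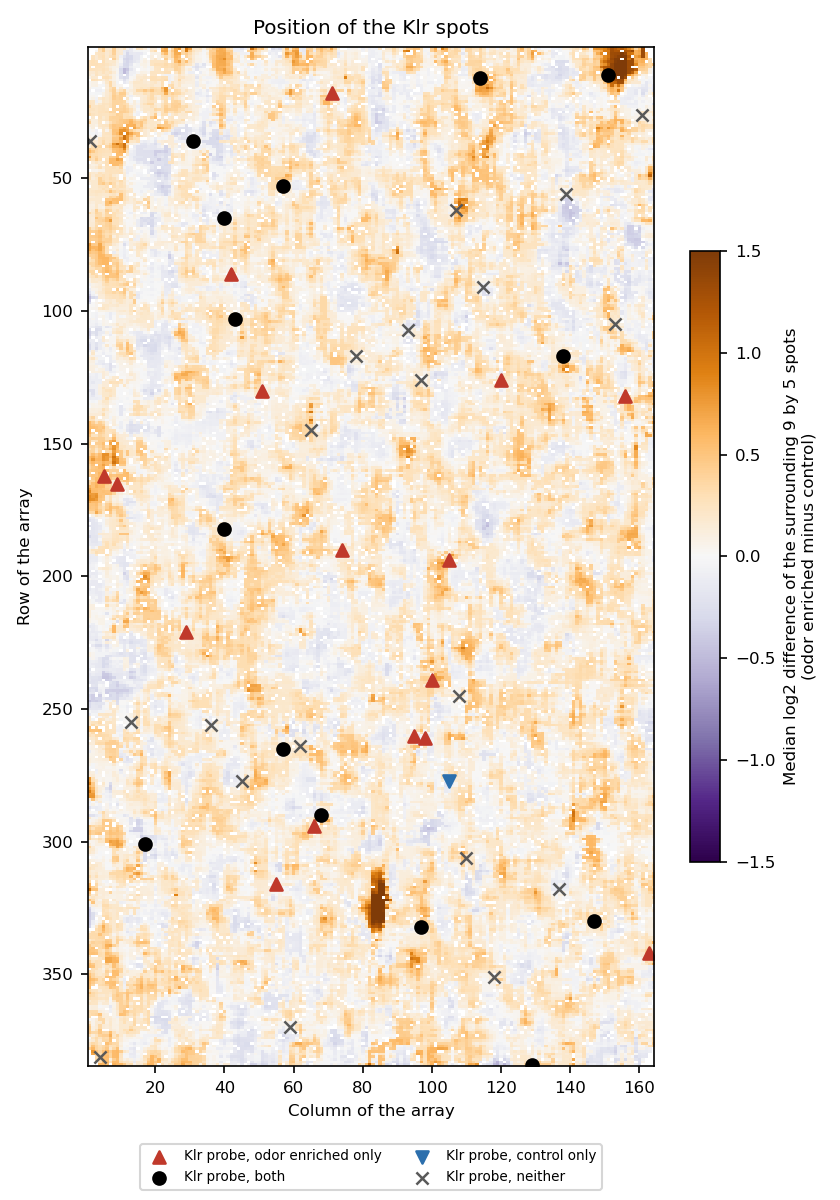
Array row against array column for the 51 Klr spots, over a map of the median log2 difference (odor enriched minus control) of the surrounding 9 by 5 spots. Symbols give where each probe was detected: odor enriched only (red triangles), both arrays (black circles), control only (blue triangle) or neither (crosses). The spots are spread over the array, and only Klrb1c (1) at row 11, column 151 lies in a bright patch.

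Of the 12 Klr genes with a value on both arrays, 8 lay 2-fold or more above control in the odor-enriched bulb and 0 lay 2-fold or more below. Over all genes, the shares were 11.5% above and 5.52% below. The median Klr difference was 2.70 log2 units, and 10 of the 12 differences were above 0, beside 50.1% of all genes (under E1A spike-in scaling Klra9, Klra12 and Klra17 also fell below 0). The genes that reached 2-fold were Klrg1, Klra22, Klra16, Klrd1, Klrb1b, Klra1, Klrk1 and Klra9. Klra1 and Klra22, synonyms in the RefSeq gene table, are counted apart here, and so is Klra16, whose probe resembles Klra22 (1). Repeat spots of the same probe differed between arrays with a pooled SD of 0.05 log2 units over 300 probes printed 10 times, but these were bright (median level 6.12), while the Klr probes measured on both arrays had a median level of -2.57. Different probes of the same gene scattered more, with a pooled SD of 0.63 over 8234 genes.

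Klrg1, an inhibitory receptor for cadherins that marks mature NK cells and effector T cells, had the widest difference among the 12 measured Klr genes. Klrg1 (1) read 400 ± 40.0 on the odor-enriched array, against 5.75 ± 1.17 on the control array. Klrg1 (2) read 174 ± 17.4 on the odor-enriched array, against 0.977 on the control array, where it was not well above background. Both probes were high on the odor-enriched array and at or near the floor on the control array. The difference of Klrg1 (1) was 6.43 ± 0.33 log2 units (scanner error), or 86.3-fold, and Klrg1 (2) was at least 44.4-fold higher. The size depended on the background correction, since normexp in place of the deposited subtraction gave 3.19 for Klrg1.

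Klrk1 encodes NKG2D, an activating receptor that binds stress-induced ligands of the H60, Raet1 and Ulbp1 families and signals through Hcst and Tyrobp. Klrk1 (1) read 85.3 ± 8.68 on the odor-enriched array, against 19.3 ± 2.17 on the control array. Klrk1 (2), which shares 20 bases of the transcript with it, read 22.3 ± 2.75 on the odor-enriched array, against 4.53 ± 1.08 on the control array, where it was not well above background. Both probes read higher in the odor-enriched bulb. The difference of Klrk1 (1) was 2.45 ± 0.22, or 5.48-fold, and Klrk1 (2) was at least 5.69-fold higher. The Klrk1 difference was 1.22 under normexp and 0.78 when arrays were scaled on the E1A spike-in RNAs, which puts it under 2-fold.

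Klrd1 encodes CD94, the shared partner of the Klrc (NKG2) chains in receptors for the MHC class I molecule Qa-1, the product of H2-T23. Its single probe read 235 ± 23.6 on the odor-enriched array, against 19.9 ± 2.23 on the control array. The spot was clear of the floor on both arrays and higher in the odor-enriched bulb, with a difference of 3.88 ± 0.22, or 14.7-fold. The size depended on the processing, since the Klrd1 difference was 2.19 under normexp and 2.20 under E1A spike-in scaling. Of the Klrc chains, only Klrc1 (NKG2A, inhibitory) and Klrc3 (NKG2E) had a probe under a Klr name, and neither was well above background on either array.

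Klre1 is a partner of Klri1, which forms an inhibitory pair with it, and of Klri2, which forms an activating pair. Klre1 (1) read 11.4 ± 1.98 on the odor-enriched array, against 21.1 ± 2.34 on the control array, and Klre1 (2) read 16.5 ± 2.45 on the odor-enriched array, against 25.97 ± 2.79 on the control array. Klre1 (3) read 10.1 ± 1.98 on the odor-enriched array, against 4.70 ± 1.095 on the control array, where it was not well above background. The probes of Klre1 went different ways, with differences of -0.58 and -0.34 for the first and second and a bound of at least 2.58-fold higher for the third. The gene value of -0.46 was smaller than the probe-to-probe SD of 0.63, and it turned to 0.09 under normexp. Klri1 and Klri2 were not well above background on either array. Klrg2, a relative of Klrg1, was the only Klr gene detected on the control array alone, with 5.91 ± 1.72 on the odor-enriched array, against 17.1 ± 1.97 on the control array. It was at least 1.73-fold lower in the odor-enriched bulb, short of 2-fold, and after normexp the bound gave no fold.

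The Klrb1 (NKR-P1) genes encode receptors for Clec2 proteins, and Klrb1c is the NK1.1 antigen used to mark NK cells in some strains. Klrb1c (1) read 11301 ± 1130 on the odor-enriched array, against 15861 ± 1586 on the control array. Klrb1c (2) read 7.36 ± 1.80 on the odor-enriched array, against 0.979 on the control array, and Klrb1c (3) read 1.62 on the odor-enriched array, against 0.967 on the control array, with neither probe well above background anywhere. So 1 probe of the NK1.1 gene was bright on both arrays while the others were at background on both, and no level of the gene could be settled from these arrays. Klrb1c (1) differed by -0.18 ± 0.20, within its scanner error, and it is the spot that lies in the bright patch.

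Klrb1b, an inhibitory receptor for Clec2d, also had probes that disagreed. Klrb1b (1) read 87.2 ± 8.86 on the odor-enriched array, against 7.75 ± 1.30 on the control array, a difference of 3.80 ± 0.28 or 14.0-fold. Klrb1b (2) was not well above background on either array. Klrb1a read 14.4 ± 2.18 on the odor-enriched array, against 1.46 ± 1.02 on the control array, and was at least 3.68-fold higher. Klrb1, Klrb1f and the pseudogene Klrb1-ps1 were not well above background on either array. The Klrb1b difference was 1.49 under normexp.

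Klra genes encode the Ly49 receptors, the rodent receptors for classical MHC class I. Klra1 (Ly49A, inhibitory) read 37916 ± 3792 on the odor-enriched array, against 6129 ± 613 on the control array. Its single probe was bright on both arrays, far from the floor, and the difference was 2.94 ± 0.20, or 7.67-fold. The probes named Klra22, a synonym of Klra1 in the RefSeq table, read only 207 and 711 on the odor-enriched array. On the control array they read 5.50 and 77.0. Probes of these names thus disagreed on level, though each was higher in the odor-enriched bulb, and the cause was not tested. Klra1 moved little with the background correction (2.76 under normexp), and spike-in scaling gave 1.27.

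Klra22 and Klra16 had the widest differences among the measured Klra genes under the 75th-percentile scaling, but not under normexp. Klra22 (1) read 207 ± 20.8 on the odor-enriched array, against 5.50 ± 1.11 on the control array, and Klra22 (2) read 711 ± 71.1 on the odor-enriched array, against 77.0 ± 7.76 on the control array. Both adjoining probes were higher in the odor-enriched bulb, by 5.55 and 3.52, and the gene value was 4.53 or 23.1-fold. Klra16 read 334 ± 33.5 on the odor-enriched array, against 18.8 ± 2.13 on the control array, a difference of 4.46 ± 0.22 or 22.1-fold. Under normexp these differences were 2.60 for Klra22 and 2.71 for Klra16, below the 2.76 of Klra1. The start of the Klra16 probe closely resembles the end of Klra22 (1), as printed above, in an overlap too short for the 40-base minimum. Klra22 (2) matched the Klra1 probe at 40 of 57 aligned bases. The values of Klra16, Klra22 and Klra1 may therefore not be independent readings, which was not tested.

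Klra9 (Ly49I, inhibitory) read 30.6 ± 3.47 on the odor-enriched array, against 16.2 ± 1.88 on the control array, a difference of 1.23 ± 0.23 or 2.34-fold. This was the member nearest above the 2-fold line, and it fell below that line under normexp (0.54) and turned negative under spike-in scaling (-0.44). Klra12 (3) read 12.7 ± 2.07 on the odor-enriched array, against 10.3 ± 1.44 on the control array, a difference of 0.60 ± 0.31. The other Klra12 probes did not follow it, since Klra12 (1) was at least 4.70-fold higher (18.4 ± 2.46 on the odor-enriched array, against 1.52 ± 1.01 on the control array) and Klra12 (2) was at background on both. Klra17 (Ly49Q, known from plasmacytoid dendritic cells and other myeloid cells) read 36.8 ± 4.06 on the odor-enriched array, against 33.5 ± 3.50 on the control array with its first probe. That was a difference of 0.44 ± 0.22, under 2-fold, and Klra17 (2) was not well above background on either array. Klra12 and Klra17 were lower under spike-in scaling, at -1.07 and -1.23.

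Another 6 Klra genes were detected in the odor-enriched bulb only. With a control reading under the floor, the floors alone give such a gene a bound of 2-fold, so only the size of each bound is described. Klra2 (Ly49B, a receptor of myeloid cells) read 139 ± 14.0 on the odor-enriched array, against 4.27 ± 1.07 on the control array with its first probe, and 17.1 ± 2.37 on the odor-enriched array, against 1.12 on the control array with the second. The gene was at least 12.5-fold higher. Klra7 (Ly49G, inhibitory) read 47.0 ± 5.01 on the odor-enriched array, against 1.06 on the control array, and was at least 12.02-fold higher. Klra4 (Ly49D, activating through Tyrobp) read 34.1 ± 3.77 on the odor-enriched array, against 0.979 on the control array, and was at least 8.72-fold higher. All of these control readings lay under the control array's floor of 4.85.

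Klra8 (Ly49H, an activating receptor that recognises a cytomegalovirus protein) was detected with all 3 of its probes, which read 37.2, 19.5 and 17.0 on the odor-enriched array, against 1.01, 1.13 and 1.35 on the control array. It was at least 5.91-fold higher. Klra23 read 38.3 and 20.8 on the odor-enriched array, against 1.07 and 0.976 on the control array, and was at least 7.22-fold higher. Klra15 read 30.8 and 8.98 on the odor-enriched array, against 1.01 and 0.974 on the control array, and was at least 4.25-fold higher. Klra8, Klra23 and Klra15 were thus above the floor in the odor-enriched bulb with every probe and under it in the control bulb with every probe. Klra8 (2) and Klra8 (3) matched each other at 45 of 46 aligned bases, and Klra23 (1) and Klra23 (2) at 50 of 52. The probes within these pairs are therefore not independent readings. With normexp, only Klra2 and Klra7 among the 7 Klr genes detected in the odor-enriched bulb only kept a bound of 2-fold or more. Klra5, Klra6, Klra10 and Klra19 were not well above background on either array. The probes of Klra4, Klra7 and Klra23 and the probe Klra15 (2) share the near-identical stretch printed above, while Klra15 (1) lies outside it. The separate bounds of these genes are not independent readings. Klra6 (1), not printed above, matched the Klra7 probe at 45 of 56 aligned bases. It read 4.02 on the odor-enriched array and 1.06 on the control array, not well above background on either.

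**Figure D3:**
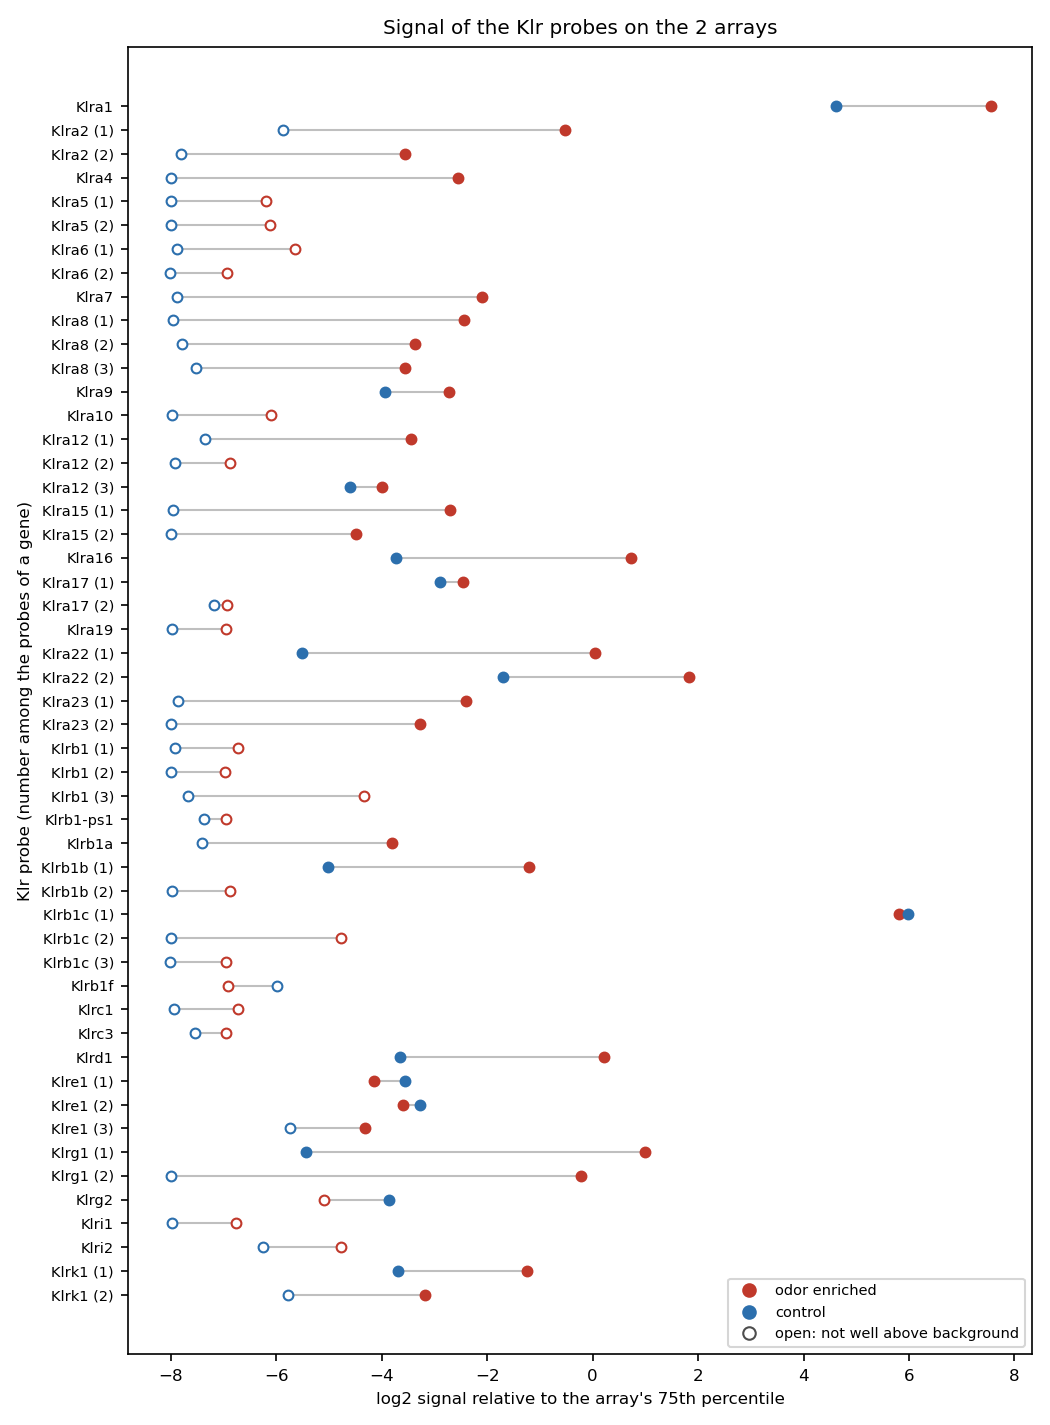
Level of each of the 51 Klr probes (log2 signal minus the 75th percentile of its array) on the odor-enriched array (red) and the control array (blue), with open circles where the probe was not well above background. Klra1 stands at 7.56 in odor enriched and 4.62 in control, Klrb1c (1) overlaps between the arrays, and most Klra probes with a filled red circle have an open blue one.

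The Klr differences were set beside other ways of scaling and correcting the same arrays. The count of 8 higher and 0 lower was the same after median centring, quantile or loess normalization and in the deposited log2 matrix, and the Klr median then ran between 2.52 and 3.03. These settings moved the median of all genes by -0.17 with median centring and by 0.33 in the matrix. The share of higher genes among all genes that differed by 2-fold was 67.6% as reported, 50.9% after median centring and 88.5% in the matrix. Normexp gave 7 higher and 0 lower Klr genes with a median of 1.36. Scaling on the E1A spike-ins moved the median of all genes to -1.67 and left 2.11% of the differing genes higher. Under it, 6 Klr genes were higher and 4 lower (Klra12, Klra17, Klrb1c and Klre1), with a Klr median of 1.03. Only 8 of the 10 spike-in probes were well above background on both arrays, and their own differences before scaling ran from 0.58 to 4.42.

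**Figure D4:**
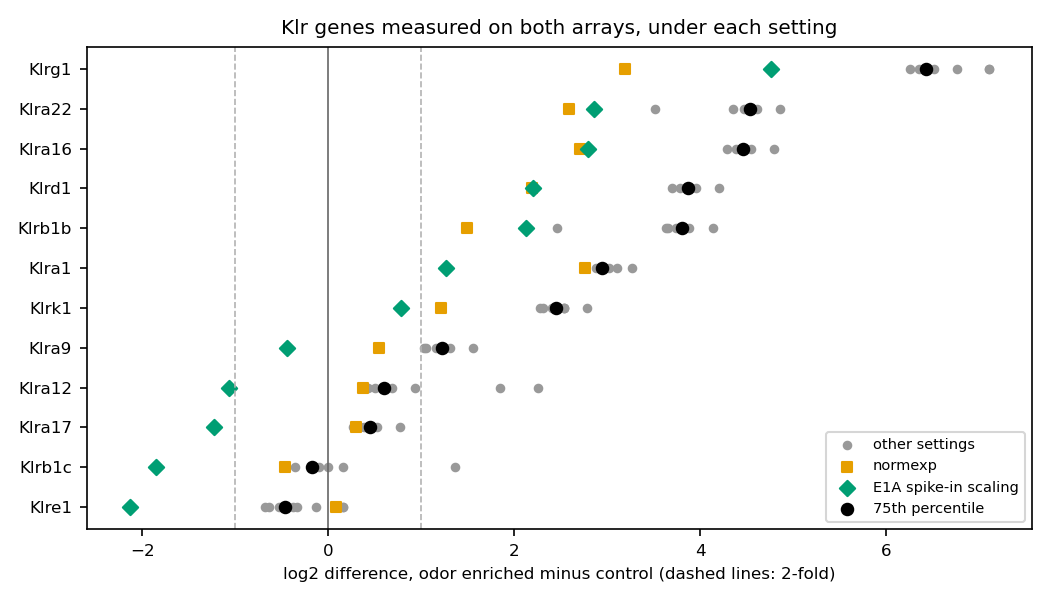
Log2 difference (odor enriched minus control) of the 12 Klr genes measured on both arrays, with the 75th-percentile scaling in black, normexp as orange squares, E1A spike-in scaling as green diamonds and all other settings in grey. Klrg1 lies right of the 2-fold line under every setting (lowest 3.19), whereas Klra9 crosses 0 under spike-in scaling (-0.44).

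Promoters were examined because members of 1 cluster were higher together. RefSeq promoter windows of GRCm38.p6 (300 bases around each start) were held for 21 Klr genes in 25 windows, and Klrg1 and Klrd1 were not among them. Shown are Klra1, whose probe was far from the floor on both arrays, and Klrk1, which holds a pair of the motifs searched, so both were chosen from windows with a RUNX match. Capitals mark matches to a motif on either strand.
Klra1 promoter (chr6:130386825-130387124, minus strand, GRCm38.p6): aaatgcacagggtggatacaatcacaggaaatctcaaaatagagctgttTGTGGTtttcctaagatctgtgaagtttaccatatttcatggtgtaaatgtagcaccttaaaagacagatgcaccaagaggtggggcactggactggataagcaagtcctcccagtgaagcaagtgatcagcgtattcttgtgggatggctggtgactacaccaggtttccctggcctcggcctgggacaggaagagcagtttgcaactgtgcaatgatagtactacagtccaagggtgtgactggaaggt
Klrk1 promoter (chr6:129623815-129624114, minus strand, GRCm38.p6): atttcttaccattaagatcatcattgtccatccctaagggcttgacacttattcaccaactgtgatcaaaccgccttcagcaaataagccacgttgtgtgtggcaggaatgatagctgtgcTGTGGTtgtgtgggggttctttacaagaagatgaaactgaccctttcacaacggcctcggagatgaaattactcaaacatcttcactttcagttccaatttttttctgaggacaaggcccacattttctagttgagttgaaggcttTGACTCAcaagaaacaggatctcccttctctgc
The motifs searched were TGTGGT (RUNX), AGGTGT (T-box), GGAAGT (ETS) and TGANTCA (AP-1), on both strands, and matches of different motifs may overlap. The RUNX letters were in 7 of the 25 Klr windows (28.0%) and in 16.8% of all 32851 windows. They were in 3 of the 12 windows of Klr genes that were higher, or detected only, in the odor-enriched bulb, and in 4 of the 13 other Klr windows, those of Klrb1c, Klrc1, Klrc3 and Klre1. The ETS letters were in 5 Klr windows (20%, against 23.8% of all), the AP-1 letters in 3 (12%, against 7.81%) and the T-box letters in 1 (4.0%, against 13.7%), which was none of those 12. The RUNX match of Klra1 and the RUNX and AP-1 matches of Klrk1 are the capitals above, and a match describes letters, not binding.

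The neighbourhood of the cluster was not uniform. On mm9, 44 Klr probes of 27 genes lie in the 2.60 Mb from chr6:128568515-131170242, while Klrg1 and Klrg2 lie elsewhere on the same chromosome. Between the first and last Klr probe are 48 other gene names. Of these, 19 were measured on both arrays, with 11 at least 2-fold higher, 2 at least 2-fold lower and a median of 1.13. Over all measured genes the shares were 11.5% higher and 5.52% lower. Most of the 11 higher genes, among them Cd69, Clec7a and Olr1, are counted again in the Clec2 and C-type lectin lists below. A further 2 were detected in the odor-enriched bulb only, 5 in the control bulb only and 22 in neither. Among all gene names, 1.21% were detected on the odor-enriched array only and 7.29% on the control array only. Chosen after their values were seen, Tmem52b had a level of 3.47 in odor enriched and 0.06 in control, and Gabarapl1, an autophagy gene, had 4.13 in odor enriched and 5.15 in control.

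The ligands of the receptors were read on the same arrays. Of the NKG2D ligands, H60a had a level of 0.32 in odor enriched and -5.11 in control, a difference of 5.44, while Raet1b had 1.26 in odor enriched and 0.996 in control, a difference of 0.27. The control level of H60a lay near the floor, and its difference was 2.62 with normexp. H60b was detected in the odor-enriched bulb only, at least 62.8-fold higher, as were Raet1e (at least 3.35-fold) and Raet1a (at least 2.24-fold). H60c was detected in the control bulb only, with no bound above 1, and Raet1c and Ulbp1 in neither. H60 genes, like Klra genes, vary between strains.

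MHC class I genes encode the ligands of Klra receptors and of Klrd1 pairs. All 12 on the array were measured on both, 10 were at least 2-fold higher and 0 lower, and the median was 2.43. H2-M3 had 1.60 in odor enriched and -1.58 in control (difference 3.18), and H2-Q7 had 4.47 in odor enriched and 1.39 in control (3.09). The lowest members were H2-Q4 (0.79) and H2-Q1 (0.16). These genes share sequence, so their probes may read each other's transcripts, which was not tested. Under spike-in scaling 3 were at least 2-fold higher and the median was 0.76.

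The Clec2 genes, which encode ligands of Klrb1 receptors and their neighbours, had 5 measured members with 3 at least 2-fold higher and a median of 1.12. Clec2i had -2.28 in odor enriched and -3.98 in control (difference 1.70) and Clec2g had -2.91 in odor enriched and -4.04 in control (1.13). Clec2e (-0.02) and Clec2l (-0.84) did not reach 2-fold. None of the Clec2 genes reached 2-fold under normexp, and their median was -0.56 under spike-in scaling. The cadherins bound by Klrg1 ran the other way, with Cdh1 at -3.35 in odor enriched and -2.32 in control (difference -1.03), Cdh4 at 0.35 in odor enriched and 1.15 in control (-0.81) and Cdh2 at 0.10 in odor enriched and 0.59 in control (-0.49). Of these only Cdh1 was 2-fold lower, and none was under normexp.

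The adaptors were mixed. Of 22 measured adaptor and proximal signalling genes, 7 were at least 2-fold higher and 0 lower, with a median of 0.37. Lat, the T cell linker protein, had 0.65 in odor enriched and -2.96 in control (difference 3.61). The lowest were Lat2 (-0.53) and Fyn (-0.81). Sh2d1a (at least 5.004-fold) and Grap2 (at least 6.10-fold) were detected in the odor-enriched bulb only. The receptors' own adaptors, chosen here after their values were seen, differed from each other, with Hcst at 2.21, Tyrobp at 0.04 and Fcer1g at 0.28. Under spike-in scaling 3 members were higher and 14 lower.

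Receptors of NK cells outside the family had 9 of 19 measured genes at least 2-fold higher, 0 lower and a median of 0.77. Cd226, an activating receptor, had 0.10 in odor enriched and -4.79 in control (difference 4.89), and Cd2, an adhesion molecule, had 1.096 in odor enriched and -2.72 in control (3.82). With normexp these differences were 2.28 for Cd226 and 2.68 for Cd2. The lowest were Pilra (0.02) and Fcgr3 (-0.41), both known from myeloid cells. Slamf7 (at least 10.97-fold), Cd96 (at least 10.02-fold) and Cd160 (at least 2.37-fold) were detected in the odor-enriched bulb only, and Ncr1 and Tigit in neither. The list of other C-type lectin genes had 9 of 14 at least 2-fold higher, 0 lower and a median of 1.15. Its Clec4 genes were not among the gene names found between the first and last Klr probe of the cluster. Cd69, an early activation marker of lymphocytes, had -0.98 in odor enriched and -5.12 in control (4.14) and Clec4b2 had -0.45 in odor enriched and -3.28 in control (2.83), while Clec4n (0.52) and Clec4d (-0.01) were lowest. With normexp the differences were 1.55 for Cd69, whose control level lay near the floor, and 1.63 for Clec4b2. Clec9a was detected in the odor-enriched bulb only, at least 4.77-fold higher. Under spike-in scaling, 5 of the other NK receptors were higher and 8 lower, and 2 of the other C-type lectin genes were higher and 3 lower.

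**Figure D5:**
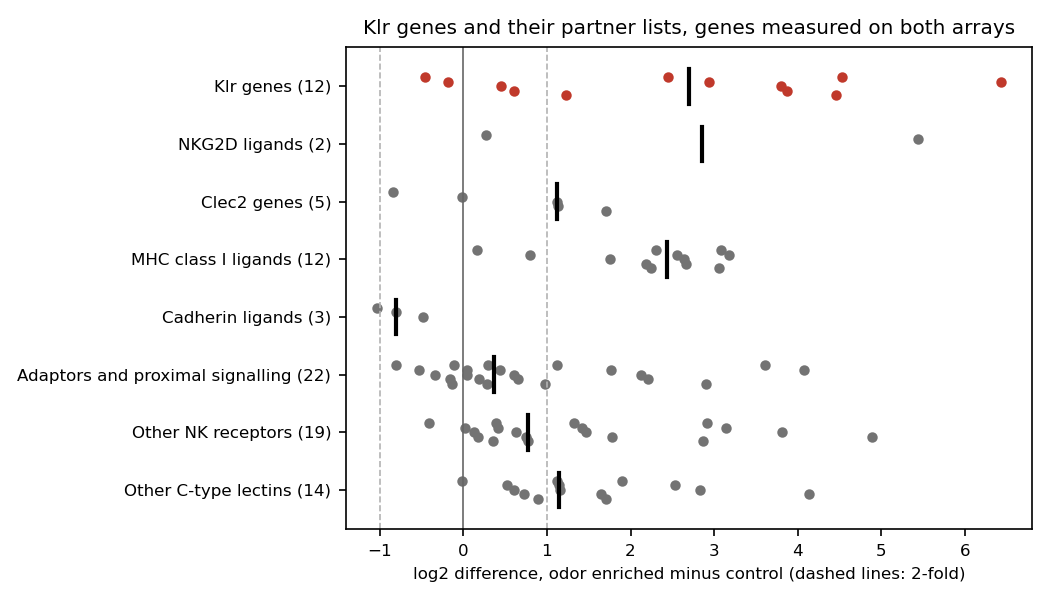
Log2 difference (odor enriched minus control) of each gene measured on both arrays, for the Klr genes (red) and the lists of ligands, adaptors, other NK receptors and other C-type lectins (grey). The number of genes is in brackets and the median is a bar. The Klr median is 2.70 and that of the MHC class I genes 2.43, while the cadherins lie left of 0 with a median of -0.81.

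Markers of the cell types that could carry these receptors were also higher in part, the T cell list most of all. Of 12 NK cell markers, 10 had a value on both arrays, with 5 at least 2-fold higher and a median of 1.84, while the NK receptor Ncr1 and the integrin Itga2 were at background on both. The 5 higher ones were Tbx21, Il2rb, Gzma, Gzmb and Nkg7, which ran from 1.43 to 3.27 under spike-in scaling. Klrb1c, Eomes, Prf1, Cd244 and Styk1 stayed under 2-fold. Under spike-in scaling each of these was at least 2-fold lower, from -2.03 for Eomes to -1.09 for Prf1. The summed level of the measured NK markers was 80.2 in odor enriched and 68.8 in control, in units of the array's 75th percentile, and most of both sums is the bright Klrb1c probe. Without Klrb1c, left out after the values were seen, the other 9 measured NK markers had 5 higher, a median of 3.11 and a sum of 24.1 in odor enriched and 5.35 in control. Of 16 T cell markers, 14 were measured, 12 were at least 2-fold higher, the median was 3.59 and the sum was 38.9 in odor enriched and 13.1 in control. Cd3e had a level of 0.25 in odor enriched and -1.18 in control (difference 1.44), and Cd8a had -2.04 in odor enriched and -5.40 in control (3.36). Under spike-in scaling the difference was -0.24 for Cd3e and 1.69 for Cd8a. With normexp it was 1.23 for Cd3e and 1.08 for Cd8a, whose control level lay near the floor. Trat1 and Themis were detected in the odor-enriched bulb only. The gamma-delta T cell and innate lymphoid list gave 2 of 6 higher (median 0.69, sum 4.38 in odor enriched and 2.41 in control), B cells 1 of 4 (0.68, sum 2.26 in odor enriched and 1.28 in control) and macrophages and microglia 2 of 8 (0.43, sum 82.8 in odor enriched and 61.8 in control). The olfactory bulb neuron markers gave 1 higher and 3 lower of 13 (median -0.49, sum 34.7 in odor enriched and 55.5 in control). The lower ones were Doc2g (-1.84), Slc17a7 (-1.67) and Cdhr1 (-1.40). The higher one was Tbx21, which like Eomes is also in the NK list. Without these 2 shared genes, left out after the values were seen, 0 of 11 neuron markers were higher and 3 lower (median -0.56), and 4 of 8 NK markers were higher (median 2.21). The shares of all measured genes past the 2-fold line, 11.5% upward and 5.52% downward, are the background for these counts and for those of the partner lists, and nothing is read from a list with 1 or 2 genes past the line. The part of these cell types in the Klr differences was not tested, and with 1 array a group the odor condition and the mouse cannot be told apart.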

How the data were processed

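Cy3-labelled cRNA from 1 odor-enriched and 1 control olfactory bulb was hybridised to 1 Agilent array each. The deposited signals are intensities extracted by the authors with Agilent Feature Extraction 11.5.1.1, background-subtracted and not normalized between arrays, per the file headers. The deposited series matrix holds log2 values equal to the log2 processed signal minus 1 constant per array (13.8 odor enriched, 14.5 control), found from the values to a tolerance of 0.1. The column medians are -8.98 and -9.48 in the same order, and the origin of the constants is not given in the sources used here.

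Outlier spots (183 odor enriched, 122 control) were left out, spots of a probe averaged, and each array's 75th percentile (7.66 odor enriched, 7.97 control) subtracted on the log2 scale. Only probes detected on both arrays entered a gene's value, as their mean. For a gene detected on 1 array, the bound sets the bright value over the higher of the other array's lowest detected level (-4.66 odor enriched, -5.69 control) and the probe's own value. Scanner errors of the 2 spots were combined on the log2 scale. Genes were counted at 2-fold, with no test. Alternatives covered scaling, background correction with normexp (offset 50, limma 3.58.1 in R 4.3.3), the deposited matrix, spot and probe filters, and thresholds. The counting steps were tested on simulated data. Analysis used Python 3.11.15. Median local background was 22 odor enriched and 17 control, which limits dim probes.

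The Klr genes, the gene lists and the tests were chosen with earlier results of these data known. Every Klr gene detected on an array was named with its values. Of each partner list the 2 highest and 2 lowest members were named, with all members detected on 1 array that reached a bound of 2-fold, except 1 gene that is not reported here. Ncr1, Cd3e and Cd8a were named among the markers, and the other markers were named after their values were seen. Coordinates of probes are on mm9, as in the files, and exon or UTR positions were not used here. Gene names follow the files.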

Additional observations from a re-analysis of the deposited data

How the results depend on the processing

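No paired analysis was possible because each group has 1 array, and no replicate could be left out. The Klr count of 8 higher and 0 lower became 16 and 1 with probes above background on either array, 25 and 1 with no filter (where dim values near the floors enter), and 6 and 4 under E1A scaling. Among single Klr genes, Klra9 reversed under E1A scaling (-0.44). With the positive-and-significant flag, 2 genes and 3 probes were detected in control only (1 and 1 as reported), and with normexp 2 of the 7 bounds in odor enriched stayed at 2-fold or more.

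Under E1A scaling the partner lists gave, as higher, lower and median, 1 lower NKG2D ligand, 0, 2 and -0.56 for Clec2 genes, 3, 1 and 0.76 for MHC class I, 3 lower and -2.48 for cadherins, 3, 14 and -1.31 for adaptors, 5, 8 and -0.90 for other NK receptors, and 2, 3 and -0.52 for other C-type lectins. Normexp gave 0 higher and 0.52 for Clec2 genes, 0 lower cadherins, and 5 higher and 0.81 for other C-type lectins. Median centring gave 1 higher, 1 lower and 0.94 for Clec2 genes and 0.97 for other C-type lectins, and quantile normalization gave 0.92 for Clec2 genes. The matrix and the detected-probe percentile each gave 0 lower cadherins, and other NK receptors had a median of 1.10 in the matrix. With probes above background on either array, 4 NKG2D ligands were higher and the other NK receptors had a median of 1.37, and with no filter the higher counts were 5 NKG2D ligands, 6 Clec2 genes and 14 other NK receptors (median 1.37). The brightest probe gave 1.09 for other NK receptors. At 1.5-fold, 1 Clec2 gene, 2 cadherins and 1 adaptor were lower, and at 3-fold 1 Clec2 gene was higher and 0 cadherins lower. The cause of these shifts was not tested. Of 341 counts and medians computed under other settings, 290 kept their direction and side of 2-fold, or a count within 1.5 times, and 51 did not. Signal over background limits the dim Klr probes, whose 2-fold bounds rest on floors of 7.97 in odor enriched and 4.85 in control.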

Other observations

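The 20 Klr probes that were not well above background on either array had a median difference of 1.16, ranging from -0.94 to 3.33. All 14871 such probes of the array had a median of 1.02, so the offset was shared by probes at background in general and no direction was read from them. The highest of these Klr readings was 9.94 on the odor-enriched array, for the Klrb1 probe at mm9 chr6:128660544-128660603, and 3.94 on the control array, for Klrb1f.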
